A study of Mus musculus with 25 samples.

Results

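The nuclear genome encodes most subunits of the mitochondrial respiratory chain and of the ATP synthase. The genes described here are those whose symbols name them as subunits of complexes I to IV, as cytochrome c or as parts of the ATP synthase, chosen by symbol and not by any measured value. The deposited table held 91 such genes among 20870. They fell into 37 genes of complex I, 4 complex I assembly factors (Ndufaf1 to Ndufaf4), 4 genes of complex II, 9 of complex III, cytochrome c (Cycs), 15 of complex IV and 15 of the ATP synthase. The remaining 6 share the naming pattern but are no plain subunit: Ndufa4l2, Cox7a2l, Atp5sl (Dmac2 in RefSeq), Atp5s (Dmac2l), Atp5l-ps1 and Atp5l2, the last listed by RefSeq as a pseudogene.

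Complexes I and II pass electrons from NADH and succinate to ubiquinone, complex III passes them to cytochrome c, and complex IV passes them to oxygen, while complexes I, III and IV pump the protons that drive the ATP synthase. Heart muscle draws most of its ATP from this chain, and its capacity grows around and after birth as the heart turns from glucose and lactate to fatty acids. Several complex IV subunits exist as a form found mainly in heart and skeletal muscle (Cox6a2, Cox7a1, Cox8b) and a form found in most tissues (Cox6a1, Cox7a2, Cox8a).

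Transcripts were measured in mouse sinoatrial node (SAN), where the heartbeat starts, and in right atrium (RA), the working muscle beside it. The first set held 3 libraries of each tissue at each of E14.5 (embryonic), P4 and P14 (postnatal days), 18 in all, from mice with an Hcn4-GFP reporter on a mixed strain background. The second held SAN at E12.5 from embryos that all carried Hcn4-GFP and floxed Isl1 alleles (Isl1 fl/fl) with tamoxifen given at E10.5. Of these, 4 libraries had no Cre (CreNeg) and 3 also carried CAG-Cre/Esr1 (CrePos), a tamoxifen-inducible recombinase under a ubiquitous promoter. The tissue was outlined by eye on frozen sections and cut out by laser, with Hcn4 staining after capture, and the RNA was amplified before sequencing without strand information. No label links a library to an animal, so the p-values here reflect only differences among libraries, which may be technical.

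Depth was 5101711 to 17997497 recovered reads per library in the 18 and 45298052 to 88020484 in the 7. Hcn4, the pacemaker channel gene, was at least 1141 CPM in the 9 SAN libraries of the first set and at most 31.1 CPM in the 9 RA libraries, and Nppa, a marker of working atrium, was at most 34.4 CPM in SAN and at least 320.3 CPM in RA. Some libraries stand apart. RA E14.5 replicate 2 gave the chain genes the smallest share of its total, and RA P4 replicate 3 was the shallowest. SAN E14.5 replicate 1 held 1503 CPM over 5 ventricle markers, against 166 to 183 CPM in RA at that stage. The lowest SAN library at E14.5 held 196 CPM, also above RA. These sums were 399 to 588 CPM in SAN and 156 to 305 CPM in RA at P4, and 234 to 419 CPM and 104 to 147 CPM at P14. Of 4 ventricle markers tested, 0 were higher in SAN at E14.5, 1 at P4 and 2 at P14 (limma, adjusted p under 0.05). At each stage 0 were lower. Their part in the tissue differences was not tested. CrePos replicate 2 is titled as an outlier and was left out of the main comparison. Where any member was called among the 18 libraries (adjusted p under 0.05), the lowest count with 1 library left out is also given. Counts at an unadjusted p, of genes without overlap and of markers are not given that way. Isl1 itself, read over the whole gene, was at 71.7 and 53.9 CPM in CrePos replicates 1 and 3, at 2.85 CPM in replicate 2 and between 47.8 and 88.5 CPM in the CreNeg libraries. The labels do not say which exons are removed, so gene-level reads do not check the genotype of replicates 1 and 3.

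Levels are given in CPM, the deposited normalized values divided by 1 constant for all libraries, and differences are on the log2(CPM + 1) scale with their SE. A gene was called at an adjusted p under 0.05 (limma, Benjamini-Hochberg over all genes tested), and adjusted p-values are limma's unless another test is named. Shares of all genes called, higher or lower are limma's at that threshold too. Counts at an unadjusted p or under other settings have no such share beside them and are not to be set against it. Of the 91 genes, 89 had at least 1 CPM in at least 3 of the 18 libraries and were tested. The others were Atp5l-ps1, at most 0.367 CPM in these libraries, and Cox7b2, at most 1.29 CPM.

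Per length of transcript, the ATP synthase held the most abundant gene. Atp5b, the catalytic beta subunit, averaged 1735 CPM per kilobase over the 18 libraries, and the lowest of the 15 genes of the ATP synthase was Atp5j2 (subunit f) at 155 CPM per kilobase. In complex IV the mean levels per kilobase ran from 949 CPM for Cox7c down to 0.477 CPM for Cox7b2. In complex III they ran from 587 CPM for Uqcrh, the hinge protein, to 109 CPM for Uqcrc1, a core protein. Among the complexes, complex II spanned the narrowest range, with Sdha, the flavoprotein, at 129 and Sdhb, the iron-sulfur protein, at 96.8 CPM per kilobase. In complex I, Ndufa4 was highest at 510 CPM per kilobase. It is named for complex I, although its protein is now placed with complex IV. Ndufb2 was lowest at 0.479 CPM per kilobase and stayed at or below 3.36 CPM in all 18 libraries. The assembly factors were low as a group, from 21.1 CPM per kilobase for Ndufaf2 to 12.8 for Ndufaf1. Among the genes that are no plain subunit, Cox7a2l, a supercomplex assembly factor, reached 143 CPM per kilobase and Ndufa4l2 7.46. Without regard to length, Atp5s was between 10.8 and 32.6 CPM and Atp5l2 between 3.87 and 12.1 CPM. Many of these genes have processed pseudogenes elsewhere in the genome, and how reads that match several places were counted is not given in the sources used here, so levels of single genes are uncertain to that extent.

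Summed over the 91 genes, SAN stood above RA at E14.5 and P4 and no longer at P14. At E14.5 the genes made up 1.28, 0.913 and 1.34% of the total in RA replicates 1 to 3 and 1.96, 1.76 and 1.66% in SAN. At P4 the shares were 1.55, 1.48 and 1.19% in RA and 1.96, 1.85 and 1.78% in SAN. At P14 they were 1.88, 2.26 and 2.16% in RA and 1.895, 1.804 and 1.73% in SAN. SAN lay above RA without overlap at the first 2 stages, and at P14 the ranges overlapped, with 2 of 3 RA libraries above every SAN library. In bulk tissue, fewer cells of a type and less RNA per cell cannot be told apart, and the captured regions held more than cardiomyocytes.

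**Figure D1:**
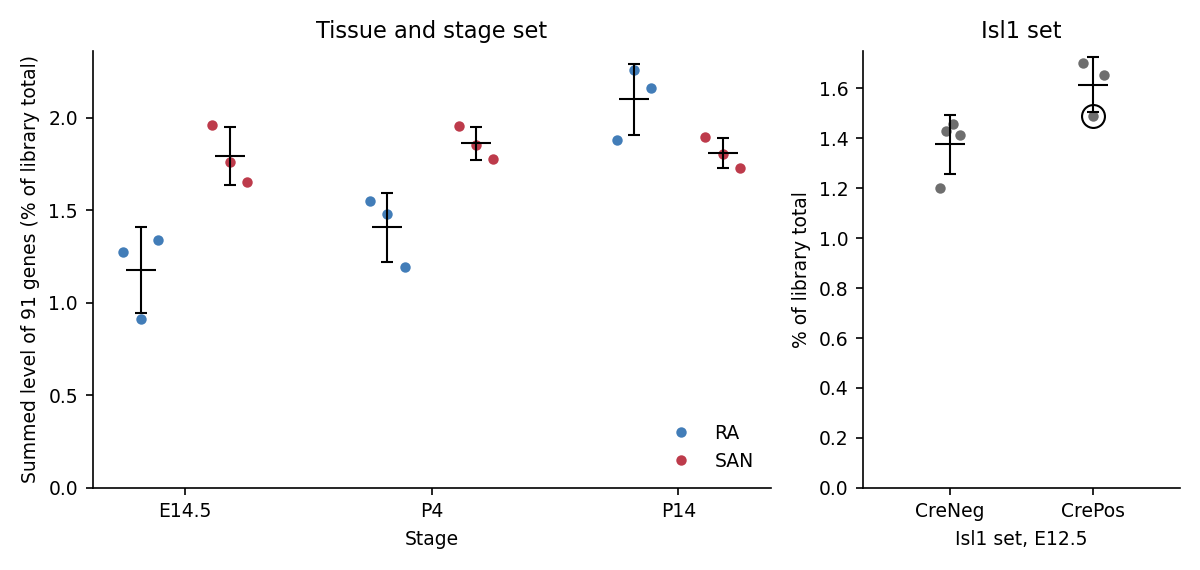
Summed level of the 91 genes as a percentage of each library's total (y axis, linear from 0) by stage and tissue (left) and in the Isl1 set (right). Points are libraries, bars the mean ± SD, and the ringed point is CrePos replicate 2. RA goes from 0.913 to 1.34% at E14.5 to 1.88 to 2.26% at P14, while SAN is at 1.66 to 1.96% and 1.73 to 1.895%.

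The comparison of SAN with RA asks how the pacemaker region differs from working atrium. Over the mean of the 3 stages, 21 of the 89 genes were higher in SAN and 0 were lower (6.11% of all genes tested were higher and 5.36% lower). At an unadjusted p under 0.05, 44 were higher and 0 lower in limma, and edgeR and DESeq2 on the recovered reads each called 0 lower. The median log2 difference of the 89 genes was 0.29, against -0.01 over all genes tested, and 80 of 89 differences were positive. The called genes were 5 of 37 in complex I, 3 of 4 in complex II, 5 of 9 in complex III, 4 of the 14 tested in complex IV, 3 of 15 in the ATP synthase and 1 of the 5 tested genes that are no plain subunit. Cytochrome c and the 4 assembly factors were not called.

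Atp5sl, an assembly factor for the membrane arm of complex I, was one of these. It was at 21.3, 32.97 and 22 CPM in RA and 45.9, 29.5 and 41.7 CPM in SAN at E14.5, and at 15.8, 15.1 and 9.47 CPM and 34.5, 36.98 and 32.6 CPM at P4. At P14 it was at 17.5, 9.36 and 26.6 CPM in RA and 24.3, 24.8 and 30.6 CPM in SAN (log2 difference over the stages 0.86, SE 0.20, adjusted p = 0.00495). SAN lay above RA without overlap at P4, and the tissues overlapped at E14.5 and P14. The complex IV genes with the smallest p were the broadly expressed forms Cox8a (0.70, SE 0.14, adjusted p = 0.000929) and Cox6a1 (0.77, SE 0.15, adjusted p = 0.00111). In complex III they were the small subunits Uqcr11 (0.73, SE 0.15) and Uqcrq (0.49, SE 0.13). Uqcr11 was at 95.3, 81.4 and 104 CPM in RA and 194, 161 and 223 CPM in SAN at E14.5, at 132, 141 and 79.8 CPM and 216, 239 and 165 CPM at P4, and at 143, 81.8 and 193 CPM and 173, 176 and 147 CPM at P14. SAN lay above RA without overlap at E14.5 and P4, and the tissues overlapped at P14. In complex II they were Sdhd, a membrane anchor (0.53, SE 0.12), and Sdha (0.36, SE 0.09). The genes of complex I with the smallest p were the accessory subunits Ndufb4 (0.61, SE 0.13) and Ndufa7 (0.59, SE 0.15). In the ATP synthase they were Atp5l, subunit g (0.59, SE 0.13), and Atp5e, the epsilon subunit (0.58, SE 0.18). The count of 21 became 12 without RA E14.5 replicate 2 or SAN E14.5 replicate 1 and 13 without SAN P4 replicate 2 or RA P14 replicate 1 when 1 library was left out, and 12 with equal upper quartiles. Of the genes named here, Atp5e lost its call with edgeR, with equal upper quartiles, without the filter and in 8 of 18 fits without 1 library, and the other 10 kept theirs under every alternative run.

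At E14.5, 19 of 89 genes were higher in SAN and 0 lower (2.24% of all genes tested were higher and 3.09% lower), with a median log2 difference of 0.61 against -0.07 over all genes. At an unadjusted p under 0.05, a looser threshold for which no share of all genes is given, 53 were higher and 0 lower. Every SAN library lay above every RA library in 64 of the 89 genes, as it did in 11.8% of all genes tested. The called genes were 7 of complex I, 1 of complex II, 4 of complex III, 3 of complex IV and 4 of the ATP synthase. Median differences were 0.57 in complex I, 0.41 in complex II, 0.63 in complex III, 0.67 in complex IV and 0.64 in the ATP synthase.

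Ndufa1, an accessory subunit of the membrane arm of complex I, was at 33.04, 35.2 and 30.02 CPM in RA and 89.3, 65.1 and 84.3 CPM in SAN at E14.5. The groups did not overlap (log2 difference 1.25, SE 0.24, adjusted p = 0.002). Atp5g3, a gene for the c subunit that forms the rotor ring of the ATP synthase, was at 257, 155 and 274 CPM in RA and 589.6, 492 and 380.5 CPM in SAN (1.11, SE 0.23, adjusted p = 0.00397). Here too all 3 SAN libraries were above all 3 RA libraries, and RA replicate 2 was lowest. Sdhd was at 103, 65.03 and 111 CPM in RA and 189.9, 200.1 and 179 CPM in SAN (1.05, SE 0.22, adjusted p = 0.00393), again with RA replicate 2 lowest. Atp5l (0.99, SE 0.22), Uqcrq (0.98, SE 0.23) and Uqcrh (0.98, SE 0.23) were also higher in SAN. So were Ndufs7, a core subunit that carries an iron-sulfur cluster (0.84, SE 0.20), Ndufa4 (0.75, SE 0.19) and, in complex IV, Cox6c (0.75, SE 0.20), Cox5b (0.81, SE 0.22) and Cox7a2 (0.96, SE 0.27).

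The number called at E14.5 rests on single libraries: it was 3 without RA E14.5 replicate 2, 4 without SAN E14.5 replicate 1, 10 without RA E14.5 replicate 1 or SAN E14.5 replicate 3 and 12 without SAN E14.5 replicate 2. It was 4 when libraries were scaled to equal levels of sarcomere genes. Ndufa1, Atp5g3 and Sdhd kept their call under every alternative run, and the other genes named lost theirs under at least 1. The median of the 89 genes minus that of all genes was 0.68, and between 0.52 and 0.78 with 1 library left out. Markers of other cells moved with this comparison. All 6 endothelial markers were called lower in SAN, with sums of 428 to 709 CPM in SAN and 1316 to 1702 CPM in RA, and none was at 0 in any library. Cardiomyocyte marker sums were 84561 to 86535 CPM in SAN and 65139 to 94324 CPM in RA (3 of 10 called higher and 0 lower in SAN), and Tnni3 was at 0 in at least 1 of the 18 libraries. Length moved with it as well: the 38 chain genes under 700 bases had a median difference of 0.75 and the 50 longer ones 0.46, and over 14186 other genes with a known length the medians were 0.26 and -0.07. The part of cell composition and of transcript length in the difference was not tested.

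At P4, 5 of 89 genes were higher in SAN and 0 lower (2.97% of all genes tested were higher and 2.99% lower), with a median of 0.37 against -0.07 over all genes. Limma gave 24 higher and 0 lower at an unadjusted p under 0.05. Every SAN library lay above every RA library in 31 genes, as in 7.45% of all genes tested. Cox6a1 was at 152, 98.6 and 67.6 CPM in RA and 203, 207 and 254 CPM in SAN (log2 difference 1.13, SE 0.26, adjusted p = 0.0083). Cox8a was at 123, 100 and 85.01 CPM in RA and 198, 193 and 205 CPM in SAN (0.96, SE 0.23, adjusted p = 0.0131). Neither gene's groups overlapped, and RA replicate 3 was lowest in both. The other 3 were Atp5sl (1.33, SE 0.34), Ndufa10, an accessory subunit of complex I (0.67, SE 0.18), and Sdha (0.57, SE 0.16). The count became 0 without RA P4 replicate 3 and 3 without any 1 of RA P4 replicate 2, SAN P4 replicate 1 and SAN P4 replicate 2. DESeq2 on the recovered reads called 12, edgeR and DESeq2 each called 0 members lower at E14.5 and at P4, and sarcomere scaling left 3. Of the 6 endothelial markers 4 were called lower in SAN, with sums of 596 to 913 CPM in SAN and 1166 to 1455 CPM in RA. Cardiomyocyte marker sums were 76324 to 91522 CPM in SAN and 86415 to 104336 CPM in RA (3 of 10 called higher and 1 lower in SAN), and the part of these cells in the difference was not tested.

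At P14 limma called 0 of the 89 genes (4.55% of all genes tested were called). At an unadjusted p under 0.05, 1 was higher and 5 were lower in SAN, and edgeR and DESeq2 on the recovered reads each called 0. The median difference was -0.13, against 0.10 over all genes. Its sign follows the scaling: under sarcomere scaling it was 0.21, against 0.39 over all genes, and 1 gene was called. Cardiomyocyte marker sums at this stage were 80324 to 95302 CPM in SAN and 120355 to 126845 CPM in RA (4 of 10 called lower and 1 higher in SAN). The 7 fibroblast markers summed to 18602 to 21468 CPM in SAN and 8295 to 10521 CPM in RA (4 called higher), and the 6 smooth muscle and pericyte markers to 3069.9 to 3748 CPM and 862 to 1241 CPM (3 called higher). No fibroblast or smooth muscle marker was at 0 in any of the 18 libraries, and the part of these shifts in the result was not tested.

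**Figure D2:**
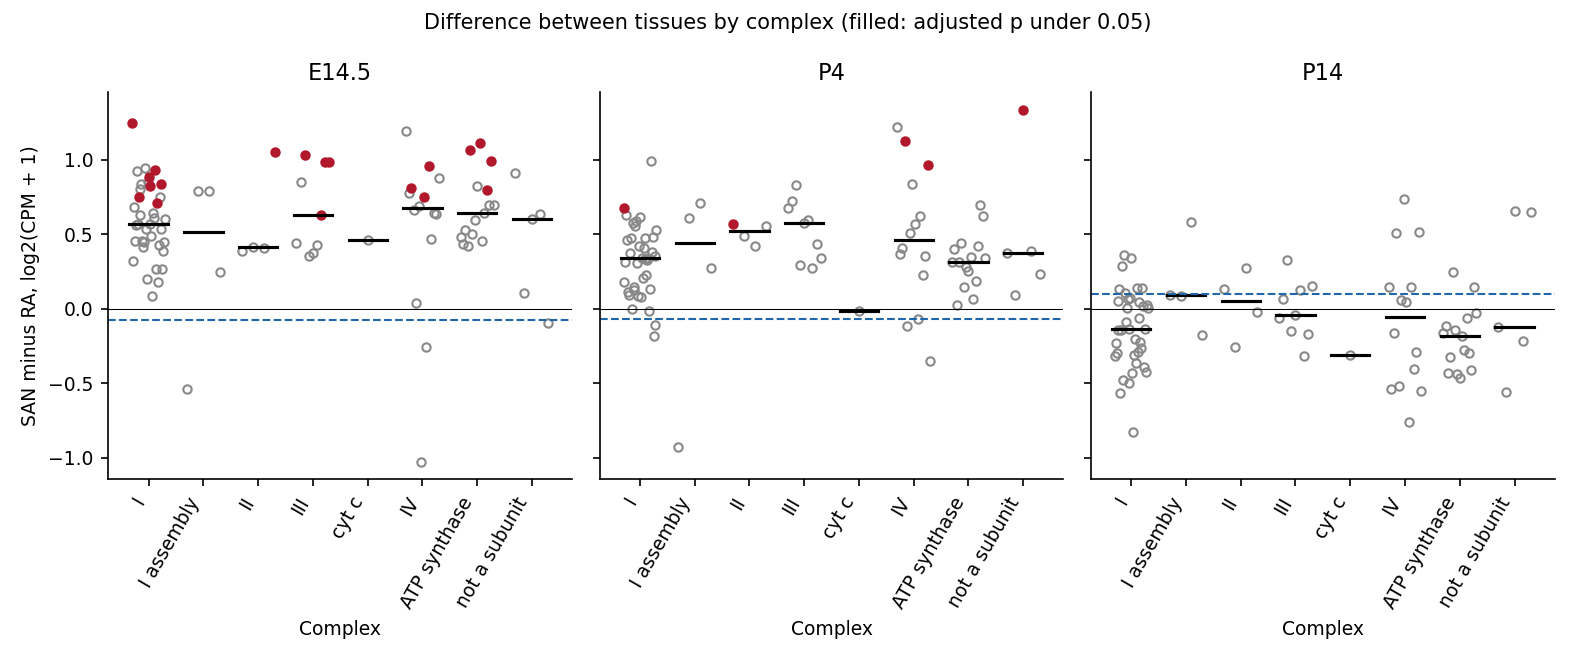
Difference between SAN and RA in log2(CPM + 1) for each of the 89 tested genes (y axis) by complex (x axis) at the 3 stages. Filled points passed an adjusted p under 0.05, black bars are medians by complex and the dashed line is the median of all genes tested (-0.07, -0.07 and 0.10). Most points sit above the dashed line at E14.5 and P4.

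The comparison of stages asks how the chain changed with age in each tissue. In RA from E14.5 to P14, 37 of 89 genes rose and 2 fell (5.99% of all genes tested rose and 16.7% fell). The median log2 change of the 89 genes was 0.59, against -0.37 over all genes tested. In 51 genes every P14 library lay above every E14.5 library, as it did in 10.7% of all genes. The genes that rose were 12 of 37 in complex I, 3 of 4 in complex II, 5 of 9 in complex III, cytochrome c, 7 of the 14 tested in complex IV, 8 of 15 in the ATP synthase and 1 of 4 assembly factors, Ndufaf4 (0.91, SE 0.27). The 2 genes that fell were Cox8a and Cox6b2, the testis form of subunit 6b. Cox6b2 was at 9.92, 7.74 and 5.79 CPM at E14.5 and 1.31, 0 and 3.101 CPM at P14 (log2 change -2.03, SE 0.67, adjusted p = 0.0331). One read was worth 0.146, 0.0891 and 0.148 CPM in these P14 libraries, so Cox6b2 was low there and at 0 in replicate 2.

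Cytochrome c, the mobile carrier between complexes III and IV, had the smallest p. Cycs was at 231, 143 and 229 CPM in RA at E14.5, at 315, 334 and 329.9 CPM at P4 and at 474, 604 and 479.9 CPM at P14, with no overlap between stages (log2 change from E14.5 to P14 1.39, SE 0.19, adjusted p = 1.93e-05). It also rose in SAN, from 273 ± 41.1 to 418 ± 58.6 CPM (SD, n = 3 libraries; 0.61, SE 0.19, adjusted p = 0.0229 by limma). In RA, Ndufs7 went from 57.03 ± 11.4 to 131 ± 13.3 CPM (1.20, SE 0.20) and Ndufa4 from 138 ± 21.9 to 296 ± 54.2 CPM (1.09, SE 0.19). In complex III the smallest p were those of Uqcrfs1, the Rieske iron-sulfur protein (0.98, SE 0.18), and Uqcrc1 (0.76, SE 0.18), and in complex II those of Sdhd (0.79, SE 0.22) and Sdhb (0.77, SE 0.23).

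From E14.5 to P4 in RA, 4 genes rose and 0 fell (3.23% of all genes tested rose and 3.56% fell). They were Cox8b, Atp5h, a stalk subunit of the ATP synthase (0.61, SE 0.16), Ndufa1 (0.89, SE 0.24) and Cycs (0.73, SE 0.19). From P4 to P14, 9 rose and 0 fell (1.34% of all genes tested rose and 5.42% fell), among them Cox7b (0.70, SE 0.17), Ndufa10 (0.68, SE 0.18), Uqcrc1 (0.70, SE 0.18), Atp5a1, the alpha subunit (0.55, SE 0.15), Cox7a1 (1.34, SE 0.36), Atp5g1 (0.92, SE 0.24) and Cycs (0.66, SE 0.19). At an unadjusted p under 0.05 limma gave 4 falls in the first step and 0 in the second, and edgeR and DESeq2 called 0 falls in either. The first count became 1 without RA P4 replicate 2 and 2 without RA E14.5 replicate 2 or RA E14.5 replicate 3, and the second 0 without RA P4 replicate 3, 1 without RA P14 replicate 2 or RA P14 replicate 3 and 3 without RA P4 replicate 2. Sarcomere scaling left 1 gene in each step, DESeq2 called 7 and 31, and in the second step edgeR called 19 and equal upper quartiles gave 22.

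The RA count from E14.5 to P14 depends on the scaling: 13 rose and 3 fell under sarcomere scaling, where the median of all genes was -0.66. With equal upper quartiles 56 rose and 0 fell, edgeR called 58 and 0, and DESeq2 61 and 0. Both directions together, it was 23 without RA E14.5 replicate 2. The rises of Cycs, Ndufs7, Ndufa4, Uqcrfs1, Atp5g1, Atp5g3, Cox7a1 and Cox8b were called under every alternative run. Those of Uqcrc1, Sdhd, Sdhb, Cox6a2 and Ndufaf4 were lost under sarcomere scaling, and the falls of Cox8a and Cox6b2 with edgeR, DESeq2 and equal upper quartiles. In fits without 1 library, calls were also lost for Cox6b2 (5 fits), Cox8a and Ndufaf4 (4 each), Sdhb (3), and Sdhd and Cox6a2 (1 each). Cardiomyocyte marker sums in RA went from 65139 to 94324 CPM at E14.5 to 120355 to 126845 CPM at P14 (5 of 10 called higher, 1 lower). Fibroblast marker sums went from 2267 to 2794 CPM to 8295 to 10521 CPM, with 7 of 7 called higher. Of 6 macrophage markers 2 were called higher (sums 61.8 to 100.3 CPM and 182 to 191 CPM, Cd14 at 0 in at least 1 of the 18 libraries). Of 6 smooth muscle and pericyte markers 2 were called higher and 1 lower. The part of these shifts in the rise was not tested.

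In SAN from E14.5 to P14, 2 of 89 genes rose and 4 fell (9.74% of all genes tested rose and 14.5% fell), and the median was -0.15 against -0.18 over all genes. Cycs and Cox7a1 rose. Atp5g2, Cox8a, Ndufc2, an accessory subunit of complex I (-0.75, SE 0.25, adjusted p = 0.0294), and Cox7a2l (-0.63, SE 0.23, adjusted p = 0.047) fell. The split of rises and falls moved with the scaling: 4 and 2 with equal upper quartiles, 4 and 2 with edgeR, 6 and 1 under sarcomere scaling and 10 and 2 with DESeq2. Calls in both directions numbered 3 without SAN E14.5 replicate 1 or SAN E14.5 replicate 2. Cox7a1 and Atp5g2 kept their call under every alternative run. Cycs lost its call in 3 fits without 1 library. Cox8a lost its call under sarcomere scaling and in 2 fits without 1 library. Ndufc2 lost it with edgeR, DESeq2, equal upper quartiles and sarcomere scaling, and in 4 such fits. Cox7a2l lost it under those 4 settings, without the filter and with the replicate block, and in 11 such fits. Markers of other cells were higher at P14 in SAN: 5 of 7 fibroblast markers were called (sums 2719 to 5273 CPM at E14.5 and 18602 to 21468 CPM at P14). Of 6 macrophage markers 5 were called (sums 36.5 to 71.9 CPM and 376 to 556 CPM), of 6 smooth muscle and pericyte markers 4 (sums 601 to 729 CPM and 3069.9 to 3748 CPM) and of 6 endothelial markers 3 (sums 428 to 709 CPM and 963 to 1036 CPM). Of 10 cardiomyocyte markers 2 were called higher and 2 lower. Their part in the SAN changes was not tested. Limma called 0 genes in either SAN step (8.24% of all genes tested were called from E14.5 to P4 and 5.59% from P4 to P14). At an unadjusted p under 0.05 there were 5 and 6 genes. EdgeR called 0 and 0, and DESeq2 2 and 0.

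Whether the E14.5 to P14 change was the same in SAN and RA was tested directly. The estimate was lower in SAN for 85 of 89 genes, with a median of -0.70 against 0.18 over all genes. Of these, 4 passed the test (0.632% of all genes tested were lower and 1.64% higher), and 44 had an unadjusted p under 0.05. They were Ndufa1 (-1.56, SE 0.33, adjusted p = 0.015), Ndufs7 (-1.23, SE 0.28, adjusted p = 0.0221), Ndufb5, another accessory subunit of the membrane arm (-1.25, SE 0.31, adjusted p = 0.0338), and Atp5g3 (-1.29, SE 0.32, adjusted p = 0.0345). Ndufs7 shows the shape: RA went from 56.3, 46.1 and 68.8 CPM to 116, 136 and 141 CPM, while SAN was at 96.3, 95.8 and 113 CPM at E14.5 and at 112, 95.3 and 92.03 CPM at P14. RA stages did not overlap and SAN stages did. This test shares its libraries with the comparisons above. The count became 1 without any 1 of RA E14.5 replicate 2, SAN E14.5 replicate 1, RA P14 replicate 2, RA P14 replicate 3 and SAN P14 replicate 3, 2 without RA E14.5 replicate 1 and 10 without RA P4 replicate 3. Sarcomere scaling left 0 calls, equal upper quartiles gave 14 and DESeq2 21.

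**Figure D3:**
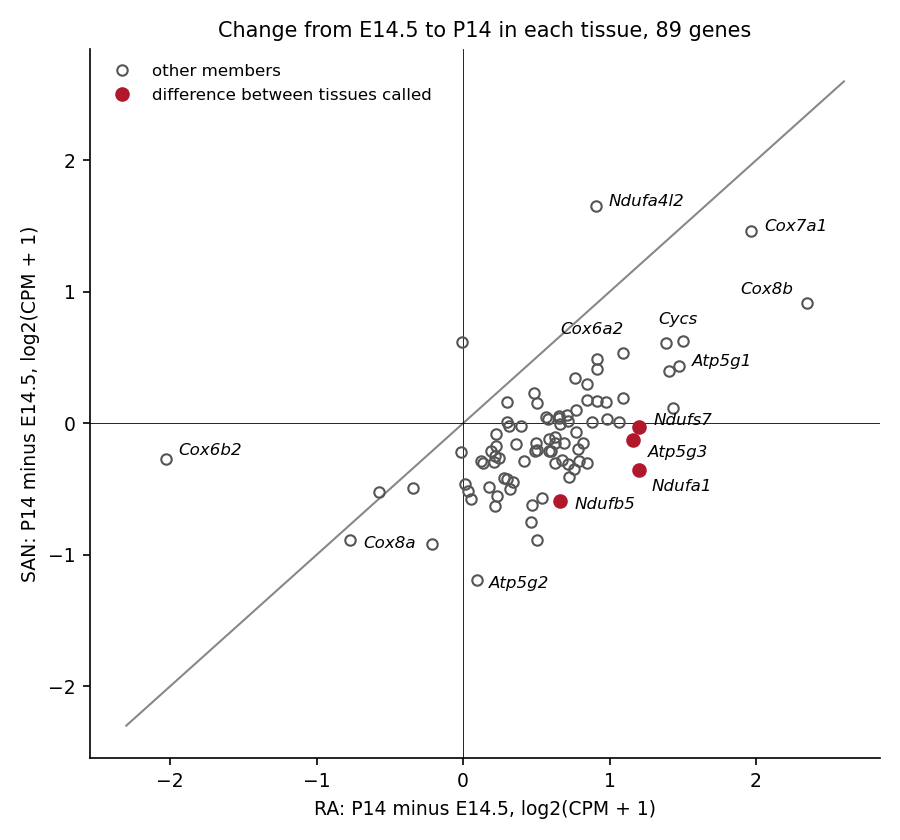
Change from E14.5 to P14 in log2(CPM + 1) in RA (x axis) and in SAN (y axis) for the 89 tested genes. The diagonal marks equal change, filled points are the 4 genes whose change differed between tissues, and 85 of 89 genes lie below the diagonal.

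Within complex IV the balance of the paired isoforms shifted. The muscle form gained on its partner with age in all 3 muscle pairs. Over the mean of the stages, the ratio of the forms was lower in SAN than in RA. For each pair, the log2 ratio of the muscle form to the other form was compared between tissues and between stages by an exact two-sided permutation test within stage or within tissue, with Benjamini-Hochberg adjustment over the 10 tests. The smallest p that these permutations can give is 0.00025 for tissue and 0.005 for stage. Cox4i1, the common form of subunit 4, was not analysed here, so Cox4i2 has no partner. It was at most 12.1 CPM in the 18 libraries.

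Cox8b was at 14.4, 19.7 and 10.7 CPM in RA at E14.5, at 70.2, 92.2 and 49.5 CPM at P4 and at 79, 50.1 and 120.2 CPM at P14. It rose from E14.5 to P4 (log2 change 2.16, SE 0.39, adjusted p = 0.00109) and from E14.5 to P14 (2.35, SE 0.39, adjusted p = 0.00014), and the later stages overlapped. In SAN it was at 35.4, 18.9 and 31.1 CPM at E14.5 and 61.8, 75.7 and 31.5 CPM at P14, where the stages overlapped and the change was not called. Its partner Cox8a was at 173, 128 and 159 CPM in RA at E14.5 and fell to 81.3, 79.2 and 109 CPM at P14 (-0.77, SE 0.23, adjusted p = 0.0206). In SAN Cox8a fell from 305, 177 and 246 CPM to 149, 155 and 89.1 CPM (-0.89, SE 0.23, adjusted p = 0.00751). Neither tissue's Cox8a stages overlapped. Per length, Cox8b made up 13.2 ± 5.101% of the pair in RA at E14.5 and 57.2 ± 7.18% at P14, and 15.1 ± 1.09% and 38.8 ± 3.796% in SAN (SD, n = 3). The log2 ratio was higher at P14 than at E14.5 by 2.46 (exact permutation p = 0.005, adjusted 0.01). The difference of SAN from RA in this ratio was -0.71 (exact permutation p = 0.01875, adjusted 0.0312), with 0.24 at E14.5, -1.31 at P4 and -1.07 at P14. That tissue difference no longer passed without RA E14.5 replicate 2, RA P4 replicate 2 or SAN P4 replicate 3 (adjusted p up to 0.0862 in the exact test).

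Cox7a1 was at 33.6, 24.7 and 16.9 CPM in RA at E14.5 and rose to 80.6, 106 and 108 CPM at P14 (log2 change 1.97, SE 0.36, adjusted p = 0.000349). In SAN it rose from 29.2, 11.3 and 24.2 CPM to 56.7, 67.4 and 48.98 CPM (1.46, SE 0.36, adjusted p = 0.00443). These stages did not overlap in either tissue. Cox7a2 was not called with stage in either tissue. Over the stages Cox7a2 was higher in SAN than in RA (log2 difference 0.57, adjusted p = 0.0187), and Cox7a1 was not called in that comparison. Cox7a1 was 14.4 ± 5.39% of the pair per length in SAN at E14.5 and 34.6 ± 1.702% at P14, against 28.05 ± 9.13% and 49.9 ± 7.99% in RA (SD, n = 3). The difference of SAN from RA in the log2 ratio was -0.93 (exact permutation p = 0.00175, adjusted 0.00875), and that of P14 from E14.5 was 1.52 (exact permutation p = 0.005, adjusted 0.01).

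Cox6a2 was at 159.9, 167 and 155 CPM in RA at E14.5 and rose to 248, 459 and 352 CPM at P14 (log2 change 1.09, SE 0.29, adjusted p = 0.00955). In SAN it was at 186, 134 and 178 CPM and at 275, 370.1 and 133 CPM, where the stages overlapped and the change was not called. The log2 ratio to Cox6a1 differed by -0.96 between SAN and RA (exact permutation p = 0.0005, adjusted 0.005) and by 1.22 between P14 and E14.5 (exact permutation p = 0.005, adjusted 0.01). The tissue differences of the Cox6a and Cox7a pairs and the stage differences of all 3 pairs held with a pseudocount of 0.1 CPM and with any 1 library left out. The remaining pairs gave no call. Cox6b2 was at most 9.92 CPM and Cox6b1 at least 119 CPM in the 18 libraries, and their ratio gave exact adjusted p = 0.646 for tissue and 0.236 for stage. Ndufa4l2, a paralogue of Ndufa4 known as a target of hypoxia signalling, was at most 23.3 CPM, with exact adjusted p = 0.881 and 0.35. Skeletal muscle expresses the same muscle forms. Its marker sums were 48.99 to 78.1 CPM in RA and 42.2 to 79.6 CPM in SAN at E14.5, and 157 to 306 CPM and 68.98 to 197 CPM at P14. Of the 9 markers tested, 1 was called between the tissues over the stages, lower in SAN. From E14.5 to P14 in RA, 1 was called higher and 2 lower, with a median log2 change of -0.61. In SAN, 1 was called higher and 0 lower, with a median of -0.44. Over all genes tested these medians were -0.37 and -0.18. In RA the sums thus rose while the median marker fell. Of the 9 markers in the file, 8 were at 0 in at least 1 library, Myh1, Myh2 and Myh4 among them. Brown adipocytes express Cox7a1 and Cox8b too, and 1 of 6 of their markers was in the file. Cidea was at most 0.553 CPM in RA and 0.502 to 2.84 CPM in SAN at E14.5, and at 2.19 to 3.99 CPM in RA and 4.798 to 15.9 CPM in SAN at P14. It was higher in SAN over the stages (log2 difference 1.47, SE 0.33) and rose from E14.5 to P14 in RA (1.80, SE 0.57) and in SAN (2.17, SE 0.57). The part of skeletal muscle or brown fat in the isoform ratios was not tested.

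**Figure D4:**
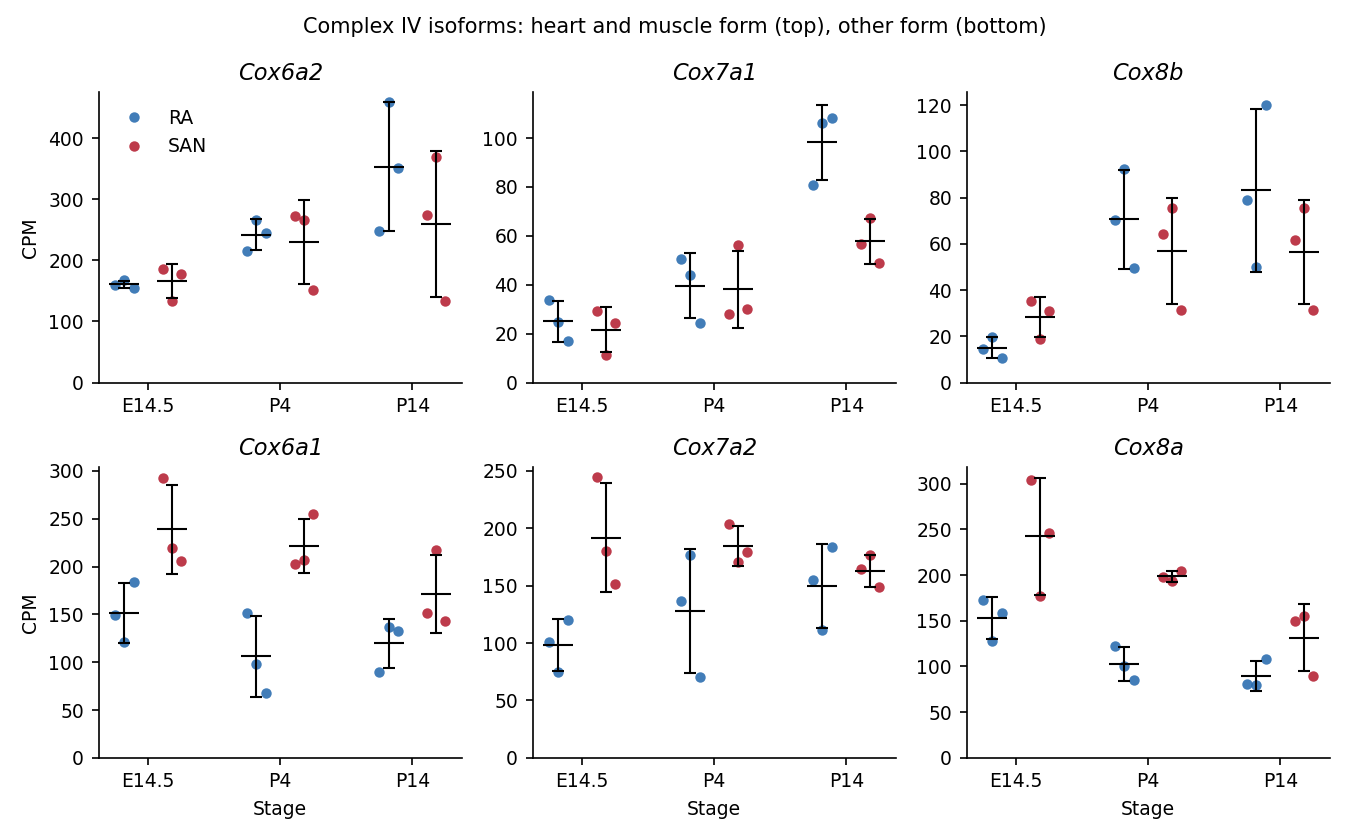
CPM in each library (y axes, linear from 0, different for each gene) by stage and tissue for the 3 complex IV pairs, with the muscle form above and the other form below. Bars are the mean ± SD. Cox8b in RA goes from at most 19.7 CPM at E14.5 to at least 50.1 CPM at P14, and Cox8a in SAN from at least 177 CPM to at most 155 CPM.

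The promoters of these isoforms are shown because the balance within each pair shifted. Sequences are from RefSeq (GRCm38.p6), 250 bases before and 50 after the annotated start, and 75 of the 91 genes matched the table. Cox6a2 was not among the matched genes, so Cox6a1 is shown without its partner. Motifs were searched on both strands and are in capitals. The ETS motif, for factors such as GABP, was CCGGAAG. That of the estrogen-related receptors was TCAAGGTCA. The TATA box was TATAAA. The NRF1 motif is the one in the first 2 runs of capitals in Cox6a1, which differ at the 1 base it leaves free, and the MEF2 motif was searched too. No match overlapped another in the windows shown. The submitters' processing notes name another build, mm8, so these positions are not those of the files. Cox8b lies at chr7:140900397-140900696 (minus strand), Cox8a at chr19:7217567-7217866 (minus), Cox7a1 at chr7:30183921-30184220 (plus), Cox7a2 at chr9:79759804-79760103 (minus) and Cox6a1 at chr5:115348909-115349208 (minus).
Cox8b: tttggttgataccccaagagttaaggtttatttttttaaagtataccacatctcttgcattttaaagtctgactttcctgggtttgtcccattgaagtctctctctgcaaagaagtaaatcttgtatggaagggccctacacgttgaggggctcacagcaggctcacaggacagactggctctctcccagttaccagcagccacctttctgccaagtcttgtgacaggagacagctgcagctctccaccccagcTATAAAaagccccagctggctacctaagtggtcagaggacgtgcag
Cox8a: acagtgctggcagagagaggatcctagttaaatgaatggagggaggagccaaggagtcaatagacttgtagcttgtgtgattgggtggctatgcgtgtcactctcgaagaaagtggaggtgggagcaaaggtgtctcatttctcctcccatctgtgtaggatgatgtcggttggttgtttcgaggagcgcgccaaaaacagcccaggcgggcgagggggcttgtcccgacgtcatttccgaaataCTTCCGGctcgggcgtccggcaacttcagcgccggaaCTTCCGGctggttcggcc
Cox7a1: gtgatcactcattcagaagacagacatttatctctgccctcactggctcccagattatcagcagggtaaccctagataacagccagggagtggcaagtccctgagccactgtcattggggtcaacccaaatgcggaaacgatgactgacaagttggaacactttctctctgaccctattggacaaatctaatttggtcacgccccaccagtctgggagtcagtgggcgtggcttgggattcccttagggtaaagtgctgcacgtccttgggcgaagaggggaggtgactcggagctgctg
Cox7a2: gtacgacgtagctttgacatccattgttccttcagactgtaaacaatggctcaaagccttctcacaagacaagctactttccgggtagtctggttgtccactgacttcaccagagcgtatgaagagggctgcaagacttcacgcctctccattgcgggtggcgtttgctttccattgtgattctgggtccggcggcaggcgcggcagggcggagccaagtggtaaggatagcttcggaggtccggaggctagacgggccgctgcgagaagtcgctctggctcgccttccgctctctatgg
Cox6a1: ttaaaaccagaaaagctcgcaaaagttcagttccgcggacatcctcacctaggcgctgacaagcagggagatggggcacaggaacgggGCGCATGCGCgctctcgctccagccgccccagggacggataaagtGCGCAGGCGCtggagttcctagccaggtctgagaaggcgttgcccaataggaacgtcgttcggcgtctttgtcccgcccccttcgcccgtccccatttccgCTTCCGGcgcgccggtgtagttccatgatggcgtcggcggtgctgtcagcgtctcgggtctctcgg
The Cox8b window held the letters TATAAA just after the annotated start, and none of the other 4 motifs. Cox8a held the ETS motif in 2 places, Cox6a1 held the NRF1 motif in 2 places and the ETS motif in 1, and neither Cox7a1 nor Cox7a2 held any of the 5. Over the 75 genes, 18 held the NRF1 motif in at least 1 promoter, 17 the ETS motif, 2 the receptor motif (Atp5g3 and Sdhd), 1 the MEF2 motif (Cox5b) and 7 the TATA box. By window, the NRF1 motif was in 23.5% of the 81 promoters of these genes and in 4.603% of all 32851, the ETS motif in 20.99% and 8.86%, the receptor motif in 2.47% and 0.423%, the MEF2 motif in 1.23% and 3.69%, and the TATA box in 9.88% and 13.6%. A match describes these letters and is not a measured binding site.

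The c ring of the ATP synthase is made from 3 genes with the same mature protein and different import sequences. Atp5g1 was at 366, 258 and 349 CPM in RA at E14.5 and rose to 755, 1045 and 899 CPM at P14 without overlap (log2 change 1.47, SE 0.24, adjusted p = 0.000125). In SAN it was at 535, 446 and 479 CPM and at 678, 622 and 677 CPM, a change that was not called although the stages did not overlap. Atp5g3 rose in RA from 229 ± 64.3 to 503 ± 88.2 CPM (SD, n = 3 libraries; 1.16, SE 0.23, adjusted p = 0.0007 by limma), and in SAN it was at 488 ± 105 and 439 ± 33.9 CPM. Atp5g2 fell in SAN from 230.3, 213 and 194 CPM to 101, 99.96 and 77.7 CPM without overlap (-1.19, SE 0.26, adjusted p = 0.00199). In RA Atp5g2 was at 121 ± 25.3 CPM at E14.5 and 128 ± 18.7 CPM at P14, and the stages overlapped.

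**Figure D5:**
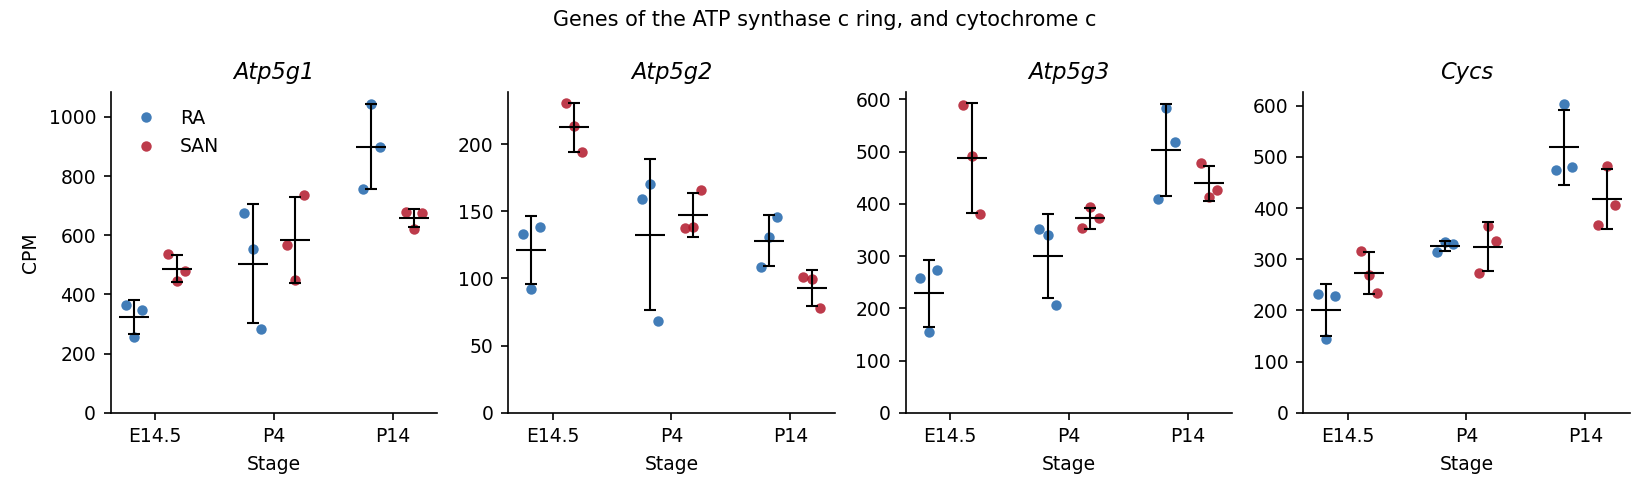
CPM in each library (y axes, linear from 0, different for each gene) by stage and tissue for the 3 genes of the c ring and for Cycs, with the mean ± SD. Atp5g1 and Cycs rise in RA, and Atp5g2 falls in SAN from at least 194 CPM to at most 101 CPM.

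Genes that act with the chain were read from lists chosen by function. For comparison, 6.11% of all genes tested were higher and 5.36% lower in SAN over the stages, and 5.99% rose and 16.7% fell with age in RA. The small counts on these lists lie near those shares in several cases, and nothing is read from them beyond the genes named. Of 16 regulators of respiratory genes, 2 were higher and 1 lower in SAN over the 3 stages, with a median of -0.05 against -0.01 over all genes. Esrrg, an estrogen-related receptor, was higher in SAN (log2 difference 1.01, SE 0.18, adjusted p = 0.000312) and fell from E14.5 to P14 in both tissues (-1.79, SE 0.30 in SAN and -1.03, SE 0.30 in RA). Ppargc1b, a coactivator of mitochondrial genes, was higher in SAN (0.79, SE 0.19), and Esrrb was lower (-1.51, SE 0.35). In RA from E14.5 to P14, 2 regulators rose, Ppargc1b (1.47, SE 0.32) and Ppara, a receptor that drives fatty acid oxidation genes (2.25, SE 0.61), and 4 fell. Tfam, the mitochondrial transcription factor, fell in both tissues (-1.05, SE 0.37 in RA and -1.17, SE 0.37 in SAN).

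Of 13 tricarboxylic acid cycle genes, 3 were higher and 1 lower in SAN, with a median of 0.15. The lower one was citrate synthase. Cs was at 858, 644 and 648 CPM in RA and 404, 397 and 406 CPM in SAN at E14.5, with no overlap (log2 difference -0.82, SE 0.17, adjusted p = 0.00483), opposite in sign to 85 of the 89 chain genes at that stage. In RA from E14.5 to P14, 5 of the 13 rose and 1 fell, and in SAN 4 rose and 1 fell (5.99% of all genes tested rose and 16.7% fell in RA, 9.74% and 14.5% in SAN). Of 31 assembly factors and carriers, 29 were in the file, with 1 higher and 1 lower in SAN and a median of 0.11. Slc25a4, the heart ADP/ATP carrier, was the higher one (0.40, SE 0.09), and Ckmt2, the muscle mitochondrial creatine kinase, the lower (-1.59, SE 0.44). In RA from E14.5 to P14, 3 rose and 1 fell, the latter being Atpif1, the inhibitor of the ATP synthase (-1.42, SE 0.27). Atpif1 fell in SAN too (-1.44, SE 0.27). Of 15 genes of mitochondrial DNA on the list, 4 were in the file. They were listed at 0 in all 18 libraries, so the subunits encoded in mitochondria were not compared between tissues or stages.

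The Isl1 comparison asks what deleting this transcription factor gene does to the SAN at E12.5. Since Isl1 reads overlap between the genotypes, the groups are taken as labelled. Limma called 0 of 88 tested members between 4 libraries labelled CreNeg and 2 labelled CrePos (2% of all genes tested were called). At an unadjusted p under 0.05 there were 3, all higher in CrePos. EdgeR on the recovered reads called 0, DESeq2 called 14 higher, and equal upper quartiles gave 1. The 2% is limma's share, and the shares of all genes under these other settings are not given here. The median was 0.03 against -0.42 over all genes tested, and its sign follows the scaling: 0.49 with edgeR, 0.47 with equal upper quartiles and -0.16 under sarcomere scaling. The members' median minus that of all genes was 0.46 and stayed between 0.31 and 0.53 under the other settings. With CrePos replicate 2 kept, 0 members were called.

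The members with the smallest p were Cox7a1 and Cycs. Cox7a1 was at 6.95, 9.65, 9.23 and 8.24 CPM in CreNeg and at 19.4, 14.99 and 19.4 CPM in CrePos replicates 1 to 3 (log2 difference 1.11, SE 0.36, adjusted p = 0.127). Cycs was at 99.96, 205, 169 and 131 CPM in CreNeg and at 224, 187 and 234 CPM in CrePos (0.65, SE 0.27, adjusted p = 0.202). Cox7a1 did not overlap between genotypes, and Cycs overlapped through CrePos replicate 2. Cox8b was at most 9.204 CPM in the 7 libraries and Cox6a2 between 23.4 and 84.8 CPM. The summed share of the chain genes was 1.201 to 1.46% in CreNeg and 1.49 to 1.7% in CrePos. In CPM the sums overlapped, at 10692 to 11678 (mean 11154) in CreNeg and 10458 to 12679 (mean 11255) in CrePos. The gap in shares thus depends on the library totals. With mt-Rnr2, a mitochondrial ribosomal RNA that took 21.4 to 34.1% of these libraries, left out of the total, the shares were 1.53 to 2.05% and 2.26 to 2.45%. Of the regulators, Esrrg was lower in CrePos (-1.47, SE 0.25, adjusted p = 0.00403). Of the 7 fibroblast markers 4 were called lower, with sums of 848 to 3042 CPM in the 3 CrePos libraries and 1866 to 4209.9 CPM in CreNeg. Of 6 skeletal muscle markers tested 1 was called higher in CrePos, with a median of 1.17 and sums of 31.6 to 50.9 CPM against 11.4 to 29.7 CPM, without overlap. Of 4 ventricle markers tested 1 was called higher, with sums of 121 to 1929 CPM in CrePos, highest in replicate 2, and 104 to 132 CPM in CreNeg. The 4 genes of mitochondrial DNA were read in this set and none was called (median -0.07). Of these, mt-Nd5, a complex I subunit, was at 7567, 9105, 8729.6 and 7868 CPM in CreNeg and 8129.7, 8319 and 7535 CPM in CrePos (-0.08, SE 0.28, adjusted p = 0.871). The complex III subunit mt-Cytb was at 1881, 2305, 2239.5 and 1647 CPM in CreNeg and 1705, 2252 and 1819.5 CPM in CrePos (-0.18, SE 0.24, adjusted p = 0.655), and the ranges of both genes overlapped. Hcn4 itself was between 36.7 and 108 CPM in CrePos and between 214 and 247 CPM in CreNeg. The part of other cells in these values was not tested.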

How the data were processed

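Gene-level values of laser-captured mouse SAN and RA were analysed. The deposited values are a normalized signal per gene, made by the authors with TopHat2 2.0.6, edgeR and build mm8 named, without their roles, per the submitters' processing notes. They were divided by 24.3374, the same constant for every library, to give CPM. Whole reads were recovered from the steps between low values (at least 99.9% of values within 0.1 of a whole read) and served as counts for edgeR 4.0.16 and DESeq2 1.42.0, which were alternatives. On these reads edgeR called 1014 genes of the whole table higher and 795 lower in SAN over the 3 stages, against 1074 and 942 by limma. The main test was limma 3.58.1 with trend on log2(CPM + 1) in R 4.3.3, after a filter of 1 CPM in at least 3 of 18 libraries (2 in the Isl1 set), tested on simulated data. Groups came from the labels. Other alternatives were equal upper quartiles, scaling to sarcomere genes, a pseudocount of 0.1 CPM, no filter, a replicate block and leaving out each library. One read was worth 0.00823 to 0.215 CPM. Named genes were those of the isoform pairs and the c ring, up to 2 called genes of smallest p per complex, comparison and direction, the extremes per length and the non-subunits. Ndufb5 was added after its values were seen. The members and lists were chosen with earlier results of these data known.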

Additional observations from a re-analysis of the deposited data

Results flagged for a closer look

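The E14.5 to P14 change differed between SAN and RA for 4 members by limma's interaction test, with log2 values (SAN minus RA) of -1.56 for Ndufa1, -1.23 for Ndufs7, -1.25 for Ndufb5 and -1.29 for Atp5g3. Each gene rose in RA, where its stages did not overlap, and was not called in SAN. For 20 levels and isoform ratios read in the 4 CreNeg libraries, no single library stood apart from the others by Dixon's test, where chance gives about 1 in 20.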

How the results depend on the processing

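All counts here are members called in either direction, and the shares of all genes called under these settings are not given. With DESeq2 they were 12 for SAN against RA at P4, 2 and 12 for SAN from E14.5 to P4 and to P14, 7, 31 and 61 for RA from E14.5 to P4, P4 to P14 and E14.5 to P14, 21 for the tissue difference in that change and 14 for Isl1. With equal upper quartiles they were 12 for SAN against RA, 22 for RA from P4 to P14, 14 for the tissue difference in change and 1 for Isl1, and edgeR called 19 for RA from P4 to P14. Sarcomere scaling gave 4, 3 and 1 for SAN against RA at the 3 stages, 1, 1 and 16 for RA and 0 for the tissue difference in change. Leaving out 1 library gave 12 to 23 for SAN against RA, 3 to 25 at E14.5, 0 to 7 at P4, 0 to 1 in each SAN step, 3 to 9 for SAN from E14.5 to P14, 1 to 5, 0 to 13 and 23 to 41 for RA and 1 to 10 for the tissue difference in change. The Cox8b/Cox8a tissue difference ranged from -0.80 to -0.58 and that of Ndufa4l2/Ndufa4, not called, from -0.28 to 0.12. A pseudocount of 0.1 CPM turned the uncalled tissue differences of Cox6b2/Cox6b1 and Ndufa4l2/Ndufa4 to 0.15 and 0.00916. The cause of these shifts was not tested. Of 66 named gene results, 25 kept their call under every alternative run and none changed sign.

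Replicate numbers did not pair the libraries: 3 of 9 correlated best with their own number, with correlations from -0.09 to 0.12. With the replicate block, calls were 20 for SAN against RA, 15 at E14.5, 5 at P4, 7 for RA from P4 to P14, 36 rises and 2 falls for RA from E14.5 to P14 and 4 for the tissue difference in change. Depth limits genes at low levels, such as Ndufb2, Cox7b2 and Cox6b2, the last at 0 in RA P14 replicate 2.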
